A study of Mus musculus with 14 samples.

Results

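The genes described here are 8 genes of Schwann cells and their myelin, *Mbp*, *Pmp22*, *Prx*, *Mag*, *Mal*, *Sox10*, *Cnp* and *Egfl8*, taken by symbol from a table of 55487 genes counted in mouse intervertebral discs (IVDs). All 8 were found once each, and all 8 passed the filter on low counts that left 16915 genes for testing. IVDs of the tail, 5 per mouse and pooled, came from male mice of 4 groups. The db/db mice (n = 3) were homozygous for the mutant leptin receptor allele Lepr db and 12 weeks old, and their controls were heterozygous db/+ littermates (n = 3), which carry 1 mutant allele. The STZ-HFD mice (n = 4) were C57BL/6 mice kept on a high-fat diet, given streptozotocin (STZ, a toxin of pancreatic β-cells) once at 100 mg/kg after 4 to 6 weeks, and fed the same diet for 12 weeks more. The labels give 80% of energy as fat for that diet, and the study's methods give a lower fat content. The Con+Veh mice (n = 4), which the labels call wild type, were C57BL/6 mice on chow given citrate buffer. Each model has its own controls, and db/db mice lack the signaling form of the leptin receptor in all tissues, so the models differ in genotype, diet, agent and age.

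Schwann cells are the glia of peripheral nerves. A myelinating Schwann cell wraps 1 stretch of 1 axon in compacted membrane, and non-myelinating Schwann cells hold thin sensory and sympathetic fibres. SOX10 keeps the lineage and, with EGR2, switches on the genes of the myelin proteins. The healthy IVD has few nerve fibres, which lie in the outer annulus fibrosus and the tissue next to it, and nerve ingrowth and diabetic neuropathy are both studied in connection with disc pain and diabetes. In bulk tissue, fewer Schwann cells and less RNA per Schwann cell cannot be told apart.

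*Pmp22* has alternative promoters, so its transcripts were followed one by one. The upstream promoter, named promoter 1, is known as the one used by myelinating Schwann cells, and promoter 2, further downstream, as the one used in many other tissues. The bases upstream of these starts are shown because the transcripts from them behaved differently in the libraries. They come from RefSeq (GRCm38.p6), 250 bases each on the plus strand of chromosome 11, written 5′ to 3′, with capitals marking the letters CCAAT and GGGCGG, all read here on the minus strand. The windows are chr11:63128732-63128981 for promoter 1 and chr11:63131207-63131456 for promoter 2.
Pmp22 promoter 1: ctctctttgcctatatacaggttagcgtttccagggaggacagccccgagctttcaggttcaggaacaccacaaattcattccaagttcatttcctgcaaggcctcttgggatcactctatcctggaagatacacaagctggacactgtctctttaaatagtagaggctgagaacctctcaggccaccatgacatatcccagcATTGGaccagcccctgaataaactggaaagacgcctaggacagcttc
Pmp22 promoter 2: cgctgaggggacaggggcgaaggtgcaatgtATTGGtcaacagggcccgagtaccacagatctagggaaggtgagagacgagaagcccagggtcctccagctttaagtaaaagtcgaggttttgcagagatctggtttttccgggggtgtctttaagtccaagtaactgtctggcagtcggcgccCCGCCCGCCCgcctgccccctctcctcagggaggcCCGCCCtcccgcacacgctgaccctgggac
The window of promoter 1 held 48.8% G and C and 3 CpG pairs, and that of promoter 2 held 61.2% and 14 CpG pairs, beside medians of 52.4% and 6 over 32851 mouse promoter windows of the same length. CCAAT was present in both windows, and in 33.8% of all windows. GGGCGG was present 3 times in promoter 2, with 2 of the matches overlapping, and not in promoter 1, and in 32.7% of all windows. Both strands were searched for these and for the SOX letters ACAAAG, present in 16.5% of all windows, and TATAAA, present in 12.4% of them. Neither was found in the promoter 1 or promoter 2 window. Of the other members with a RefSeq window, *Mag*, *Cnp* and *Egfl8* held ACAAAG and *Prx* and *Mal* did not. *Mbp* and *Sox10* had no entry in that table.

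Libraries held 16076908 to 58943169 counts, of which ribosomal RNA genes took 28.1% to 60.3%. Levels are given as CPM (counts scaled to a total of 1e+06 per library over the genes tested, after edgeR's TMM factors). On this scale 3 counts equal 0.0431 to 0.163 CPM, a floor that covers counting error only. The STZ-HFD replicate 1 library had the lowest total and stood apart in melanocyte markers: the summed CPM of 7 of them was 20.0 in it and 0.617 to 3.01 in the other 13. Of 6 keratinocyte markers, *Krt5* (1.77 CPM), *Krt14* (1.89) and *Krt1* (1.36) were highest in it. *Krt10* was higher in STZ-HFD replicate 2 (4.54 against 3.33 CPM). The sum of the 6 was 104 CPM in STZ-HFD replicate 1 and 127 CPM in Con+Veh replicate 2, so on the whole list the former did not stand apart. Limma's quality weights, which set how much each library counts in the fit, were 0.275, 0.462, 3.05 and 1.81 for Con+Veh replicates 1 to 4, 0.379, 0.688, 1.52 and 1.53 for STZ-HFD replicates 1 to 4, and 1.06 to 1.39 for the 6 libraries of the db cohort. *Lepr*, the gene mutated in db/db mice, was at 4.86, 7.67 and 5.89 CPM in db/db and 9.68, 6.504 and 6.08 CPM in db/+. The total of a gene with a point mutation does not check the label. In the other model *Lepr* was lower in STZ-HFD (9.41, 9.25, 10.5 and 13.1 CPM) than in Con+Veh (22.9, 20.2, 26.04 and 22.0 CPM), with a log2 fold change of -1.11 (SE 0.21, limma voomWithQualityWeights adjusted p = 0.011).

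Per kilobase of exon, *Pmp22* was the most abundant of the 8, with a median of 195 CPM per kb over the 14 libraries (94.5 to 687). *Mbp* followed at 12.6 (4.16 to 40.2) and *Mal* at 10.2 (1.53 to 29.4). *Prx* was at 4.49 (1.02 to 31.0), *Sox10* at 3.74 (1.76 to 9.37) and *Cnp* at 3.52 CPM per kb (0.732 to 8.86). *Egfl8* at 0.879 (0.410 to 2.83) and *Mag* at 0.485 (0.0133 to 1.84) were the scarcest. *Mbp* was above *Mal* in 13 of 14 libraries, *Mal* above *Prx* in 11, *Prx* above *Sox10* in 11, *Sox10* above *Cnp* in 9, *Egfl8* above *Mag* in 10 and *Cnp* above *Egfl8* in 13. Only *Pmp22* lay above its neighbour in this order in all 14 libraries.

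None of the 8 genes passed the test in either model, and none passed the test of a difference between the models. The threshold was an adjusted p under 0.05 (limma voomWithQualityWeights, Benjamini-Hochberg over all genes tested) with a log2 fold change of 1 or more in size. Of the 16915 genes, 1.66% were called in db/db against db/+, 2.61% in STZ-HFD against Con+Veh and 1.77% in the difference of the contrasts, so 0 of 8 is close to what the background gives. At an unadjusted p under 0.05, 0 members passed in db/db and 1, *Pmp22*, in STZ-HFD, beside 21.1% and 17.9% of all genes. edgeR's quasi-likelihood test called 0 members in each contrast, beside 0% of all genes in db/db, 0.171% in STZ-HFD and 0.0296% in the difference, and DESeq2 called 0 members beside 1.25%, 1.64% and 1.48%. The intervals were wide: together the members' 95% confidence intervals spanned log2 fold changes from -2.86 to 1.71 in db/db and from -2.48 to 1.23 in STZ-HFD. A log2 fall of 1 lay within every interval. A log2 rise of 1 lay only within that of *Mal* in db/db and that of *Mag* in STZ-HFD. These are limits of the weighted fit, and in STZ-HFD the direction changed without the weights, as given below. The next paragraphs give each gene in the order of its place in the Schwann cell.

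**Figure D1:**
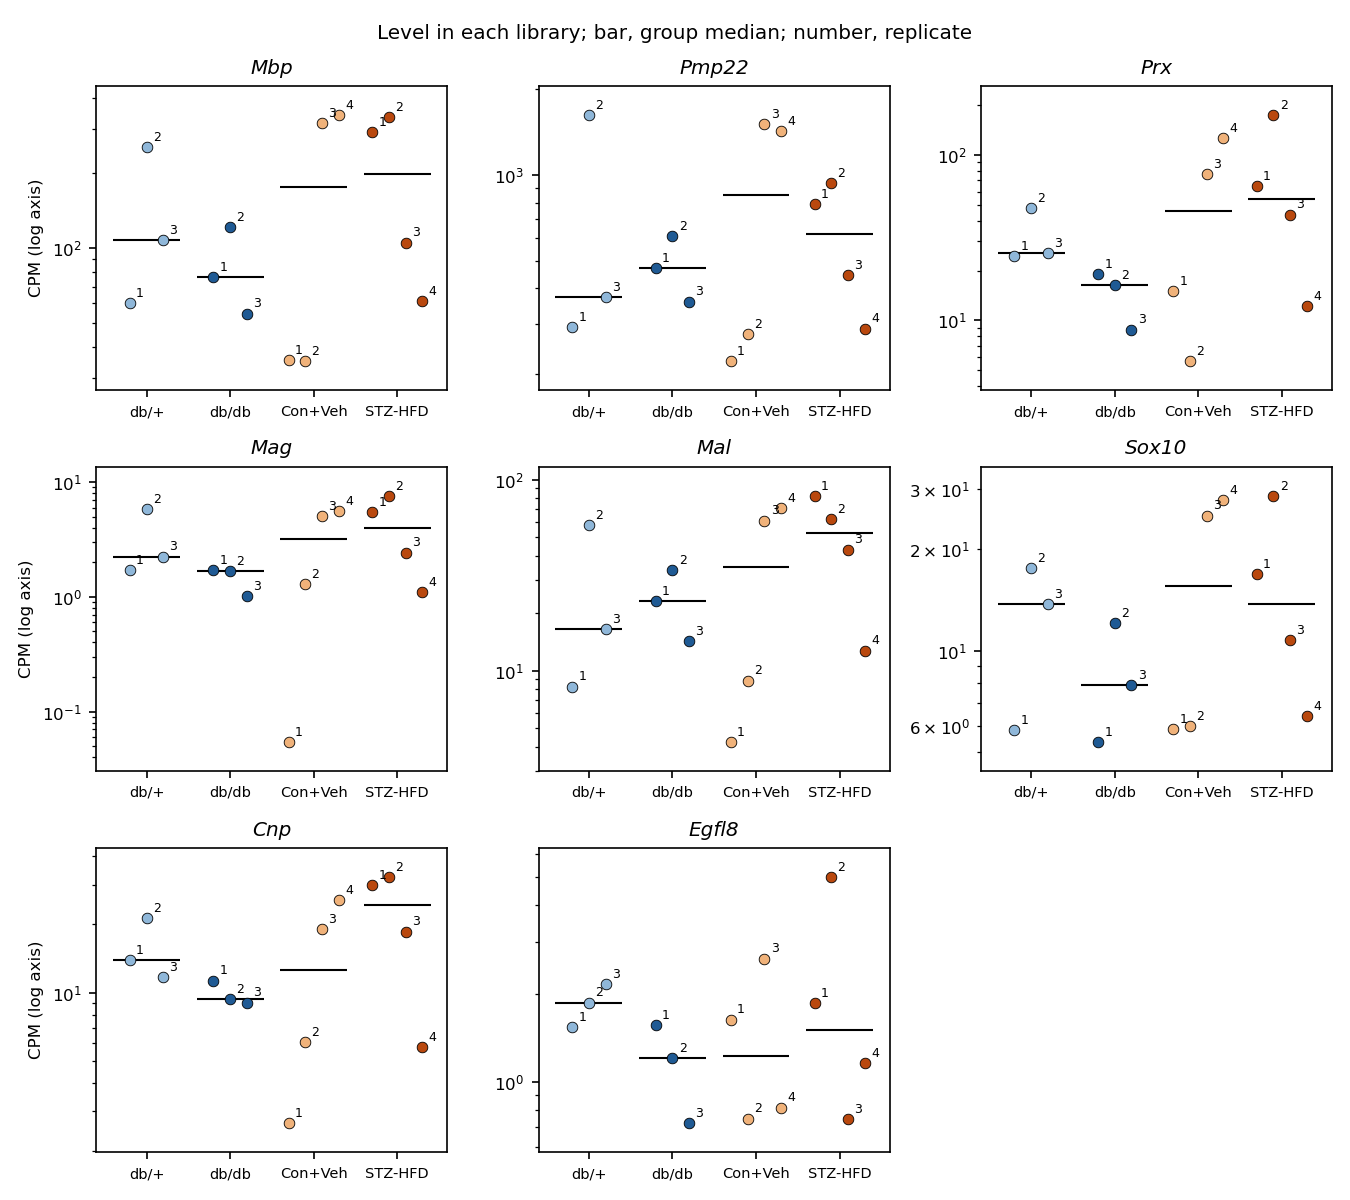
CPM of the 8 genes in each library on log axes, with 1 point per mouse, its replicate number beside it and the group median as a bar. Replicate 2 is the highest db/+ library for 7 of the 8 genes, replicates 3 and 4 of Con+Veh lie above replicates 1 and 2 for 7 of 8, and replicates 1 and 2 of STZ-HFD lie above replicates 3 and 4 for 8 of 8.

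*Sox10* (ENSMUSG00000033006, chromosome 15 from 79154908 to 79165240, minus strand, GRCm38) encodes the transcription factor that defines the Schwann cell lineage. It was at 5.81, 17.5 and 13.7 CPM in db/+ and at 5.37, 12.0 and 7.92 CPM in db/db. The db/db values lay within or just below the db/+ range, and the groups overlapped (log2 fold change -0.50, SE 0.53, adjusted p = 0.62). In Con+Veh it was at 5.84, 5.98, 25.1 and 27.8 CPM, a split of 2 low and 2 high libraries. In STZ-HFD it was at 16.8, 28.6, 10.7 and 6.39 CPM, inside almost the same range (log2 fold change -0.95, SE 0.49, adjusted p = 0.32).

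*Mbp* (ENSMUSG00000041607, chromosome 18 from 82475146 to 82585637, plus strand) encodes myelin basic protein, which holds the cytoplasmic faces of compact myelin together. It was at 60.3, 254 and 108 CPM in db/+ and 76.5, 122 and 54.6 CPM in db/db. Replicate 2 stood above the rest in db/+, and the groups overlapped (log2 fold change -0.62, SE 0.69, adjusted p = 0.65). Without that library the log2 fold change was -0.01. In Con+Veh *Mbp* was at 35.4, 35.3, 317 and 340 CPM, a wide gap inside the control group. STZ-HFD held 291, 335, 105 and 61.1 CPM, all within the range of the Con+Veh libraries (log2 fold change -1.12, SE 0.58, adjusted p = 0.33). In the transcript table, the 2 *Mbp* transcripts that start at the far upstream promoter, which give the golli proteins found in immune and neural cells, took 0.373% of all *Mbp* estimates over the 14 libraries and 0 to 16.5% in single libraries, the highest being Con+Veh replicate 1 with 72.9 estimated *Mbp* counts. Nearly all other estimates were of transcripts that start at the downstream promoter of the classic myelin forms.

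*Pmp22* (ENSMUSG00000018217, chromosome 11 from 63128982 to 63159547, plus strand) encodes a membrane protein of compact peripheral myelin, whose gene dosage is altered in hereditary neuropathies. It was at 292, 1617.5 and 374 CPM in db/+ and 472, 609 and 359 CPM in db/db. The db/db libraries lay between the db/+ extremes (log2 fold change -0.35, SE 0.63, adjusted p = 0.79), and without db/+ replicate 2 the fold change turned to 0.50. In Con+Veh it was at 222, 276, 1507 and 1423 CPM. In STZ-HFD it was at 792, 936, 446 and 289 CPM, again all inside the Con+Veh range. The log2 fold change of -1.40 (SE 0.51) had an unadjusted p of 0.014 and an adjusted p of 0.15 in limma's fit.

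*Mal* (ENSMUSG00000027375, chromosome 2 from 127633226 to 127656695, minus strand) encodes a small proteolipid of myelin and of sorting vesicles. It was at 8.27, 58.0 and 16.6 CPM in db/+ and 23.2, 33.5 and 14.3 CPM in db/db. The groups overlapped, and the log2 fold change of 0.07 (SE 0.78, adjusted p = 0.97) was the only one above 0 in that model. In Con+Veh it was at 4.24, 8.87, 61.1 and 71.0 CPM and in STZ-HFD at 81.7, 62.3, 43.1 and 12.8 CPM. STZ-HFD reached the highest library of all, yet the fitted log2 fold change was -0.63 (SE 0.67, adjusted p = 0.68).

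*Prx* (ENSMUSG00000053198, chromosome 7 from 27499324 to 27520214, plus strand) encodes periaxin, which ties the outer Schwann cell membrane to the basal lamina. It was at 24.5, 47.6 and 25.6 CPM in db/+ and 19.1, 16.3 and 8.81 CPM in db/db. All db/db libraries lay below all db/+ libraries, with a log2 fold change of -1.19 (SE 0.79, adjusted p = 0.40). In Con+Veh *Prx* was at 15.0, 5.69, 76.5 and 126 CPM and in STZ-HFD at 64.8, 173, 43.6 and 12.2 CPM, which overlapped throughout (log2 fold change -0.93, SE 0.67, adjusted p = 0.51). The gene *Gm15541* lies antisense to *Prx* and had 42 to 313 counts, and since no source states a strand setting for the counting, reads of the pair may not be told apart.

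*Cnp* (ENSMUSG00000006782, chromosome 11 from 100574904 to 100591729, plus strand) encodes an enzyme of the cytoplasmic channels of non-compact myelin. It was at 13.9, 21.3 and 11.7 CPM in db/+ and 11.3, 9.40 and 9.03 CPM in db/db, a second gene whose db groups did not overlap, by a narrow gap (log2 fold change -0.66, SE 0.53, adjusted p = 0.50). Groups of the db cohort did not overlap for 25.8% of all genes tested (14.1% higher and 11.7% lower in db/db). Counted in either direction, 2 of 8 is no more than the background, though both members were lower. In Con+Veh *Cnp* was at 2.66, 6.07, 19.0 and 25.5 CPM and in STZ-HFD at 29.9, 32.3, 18.6 and 5.74 CPM (log2 fold change -0.29, SE 0.50, adjusted p = 0.81). In that cohort the groups of 0 members were without overlap, beside 4.74% of all genes (1.97% higher and 2.77% lower). *Dnajc7* shares 8912 bases with *Cnp* on the other strand.

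*Mag* (ENSMUSG00000036634, chromosome 7 from 30899176 to 30914873, minus strand) encodes the adhesion molecule of the inner, periaxonal membrane. It was low, at 1.70, 5.81 and 2.24 CPM in db/+ and 1.72, 1.68 and 1.02 CPM in db/db (log2 fold change -1.05, SE 0.82, adjusted p = 0.49). Con+Veh replicate 1 held 2 counts, under the floor of 3, and the other Con+Veh libraries were at 1.29, 5.08 and 5.59 CPM. STZ-HFD was at 5.51, 7.50, 2.42 and 1.10 CPM (log2 fold change -0.50, SE 0.82, adjusted p = 0.80).

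*Egfl8* (ENSMUSG00000015467, chromosome 17 from 34613349 to 34615971, minus strand) encodes a protein with EGF-like domains. It was the member least like the others, at 1.54, 1.86 and 2.16 CPM in db/+ and 1.56, 1.21 and 0.723 CPM in db/db (log2 fold change -0.74, SE 0.48, adjusted p = 0.40). It was at 1.63, 0.748, 2.63 and 0.815 CPM in Con+Veh and 1.85, 4.99, 0.745 and 1.16 CPM in STZ-HFD (log2 fold change -0.27, SE 0.57, adjusted p = 0.85). In Con+Veh its high and low libraries were not those of the other members, since replicate 4, high in the other 7 genes, was low here. In STZ-HFD replicates 1 and 2 were the highest, as for the other members. *Agpat1* overlaps *Egfl8* on the other strand.

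**Figure D2:**
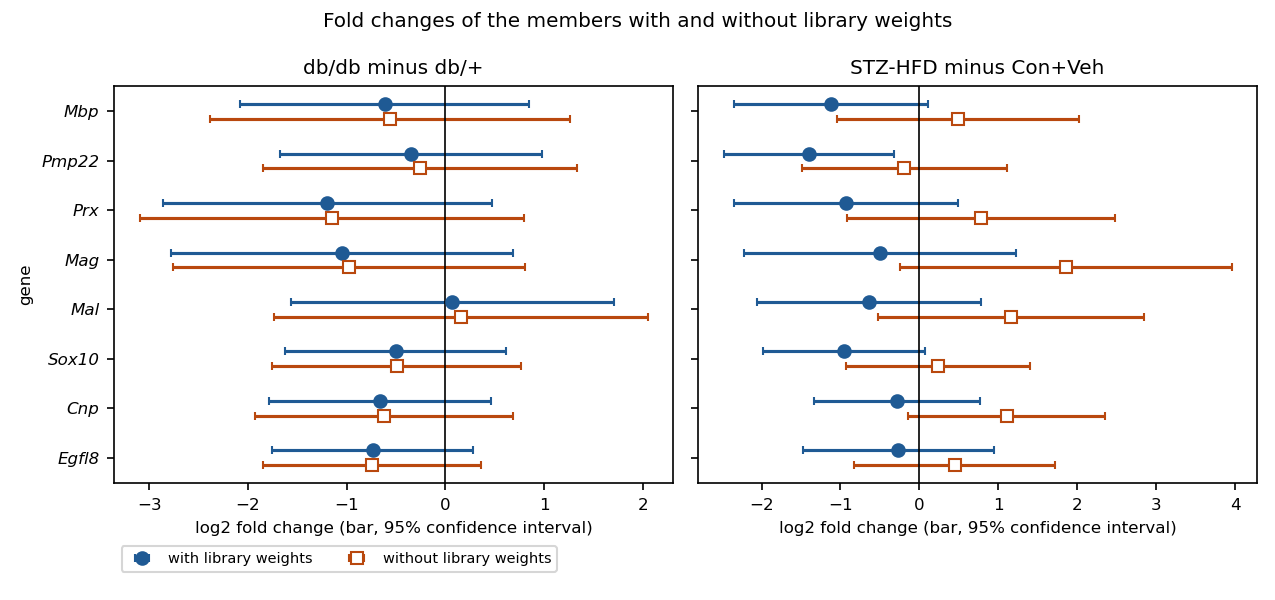
Log2 fold changes of the 8 genes in each model, with 95% confidence intervals, from limma's voom fit with library quality weights (circles) and without them (squares). In db/db both fits agree in sign for every gene, and in STZ-HFD 7 of 8 genes change sign when the weights are left out.

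The direction in STZ-HFD rested on the library weights. With quality weights the log2 fold changes of 8 of 8 members were below 0. Without them 7 of 8 were above 0, for example 0.49 for *Mbp*, 1.16 for *Mal*, 1.11 for *Cnp* and 1.85 for *Mag*, and *Pmp22* stayed below 0 at -0.19. Con+Veh replicates 1 and 2, which hold the low members, had the lowest weights of their group, and STZ-HFD replicates 1 and 2, which hold the high members, the lowest of theirs. No member was called with or without weights, so no direction is given for STZ-HFD. In db/db the weights moved the values little, and 7 of 8 members were below 0 either way, with a median log2 fold change of -0.64 beside -0.04 over all genes. Without db/+ replicate 2, the high library of that group, 6 of 8 were below 0 and the median was -0.28, beside -0.05 over all genes.

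The members varied far more between mice of a group than between groups. The standard deviation of log2 CPM within groups was 1.32 for *Mbp*, 1.11 for *Pmp22*, 1.47 for *Prx*, 1.69 for *Mag*, 1.46 for *Mal*, 0.96 for *Sox10* and 1.05 for *Cnp*, beside a median of 0.53 over all genes tested. Of the 1000 genes nearest in mean level, 97.9% to 99.6% had a lower within-group spread than these 7 genes. *Egfl8* at 0.82 was above 61.6% of its neighbours. Group means held 1.84% (*Pmp22*) to 20.9% (*Prx*) of the sum of squares of a member, beside a median of 36.8% over all genes.

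**Figure D3:**
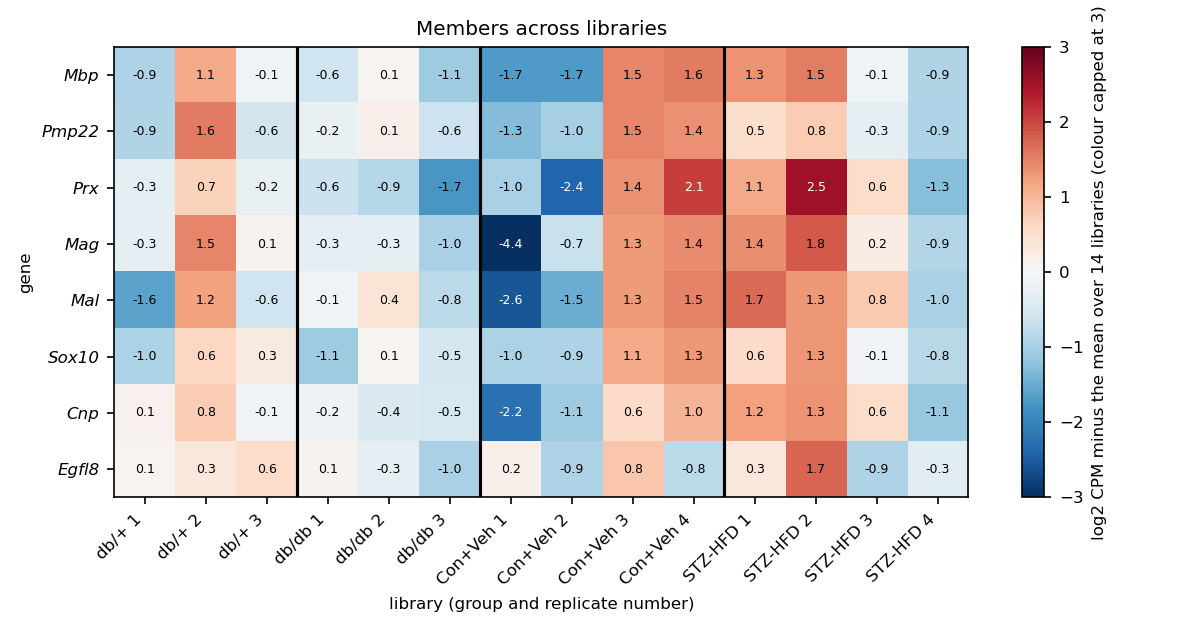
Log2 CPM of each member minus its mean over the 14 libraries, 1 column per library in the order of the groups. Con+Veh replicates 1 and 2 sit low and replicates 3 and 4 high for all genes but *Egfl8*, and STZ-HFD replicates 1 and 2 sit above replicates 3 and 4.

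The same libraries were high or low for most members. In db/+, replicate 2 was highest for 7 of 8 genes and replicate 1 lowest for 7. In db/db, replicate 3 was lowest for 7. In Con+Veh, replicates 3 and 4 lay above both other libraries for 7 of 8 genes, and in STZ-HFD, replicates 1 and 2 did so for 8 of 8.

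Pearson's r of log2 CPM over the 14 libraries with the mean standardised level of the 8 genes, which contains the gene itself, was 0.99 for *Mbp*, 0.89 to 0.93 for *Pmp22*, *Prx*, *Mag*, *Mal*, *Sox10* and *Cnp*, and 0.55 for *Egfl8*. These values describe the libraries, which also differ in depth, weight and content of other tissue.

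Among the genes most like the members, by Pearson's r of log2 CPM over the 14 libraries with the members' mean standardised level, were *Kif1a* (r = 0.97), *Adcy1* (0.97), *Drp2* (0.96) and *Secisbp2l* (0.95). On deviations from the group means, *Lamb1* had the highest r (0.98). *Drp2* encodes a partner of periaxin. It was at 17.9, 87.4 and 40.6 CPM in db/+, 28.1, 44.98 and 16.5 CPM in db/db, 9.02, 14.2, 68.0 and 75.8 CPM in Con+Veh and 59.4, 83.0, 42.6 and 23.7 CPM in STZ-HFD.

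Other features of the libraries moved with this split in part. Con+Veh replicates 3 and 4, the high libraries, held 27915536 and 23173075 counts against 46208264 and 58943169 in replicates 1 and 2, and ribosomal RNA shares of 52.8% and 45.8% against 50.8% and 60.3%. In STZ-HFD the high replicates 1 and 2 held 16076908 and 39237239 counts against 46532382 and 45457402, with ribosomal RNA shares of 44.4% and 53.3% against 53.3% and 58.3%. Depth ran the other way in db/+, where the high replicate 2 held 50964167 counts beside 46252923 and 47267983. Its ribosomal RNA share was 38.08% beside 39.65% and 28.88%. In Con+Veh the summed CPM of 8 endothelial markers was 895 and 905 in the high libraries and 226 and 254 in the low ones. Of these sums *Kdr* alone gave 649 and 582 against 12.1 and 25.4 CPM. The sum of 6 adipocyte markers was 823 and 585 CPM in the high Con+Veh libraries against 420 and 338 CPM. The adipocyte sum was 826 and 905 CPM in the high STZ-HFD libraries and 924 and 896 CPM in the low ones, and 349 CPM in db/+ replicate 2 beside 428 and 196 CPM. Erythroid markers (6 genes) summed to 96.2 and 64.96 CPM in the high Con+Veh libraries and 31.5 and 25.6 CPM in the low ones, and to 60.03 to 82.3 CPM in STZ-HFD. In STZ-HFD the endothelial sum ran the other way in replicate 1 (208 CPM, against 433, 409 and 486 in replicates 2 to 4), and in db/+ replicate 2, the high library, it was 240 CPM beside 243 and 176. Skeletal muscle markers (12 genes) summed to 9261 to 12342 CPM in Con+Veh, with the high libraries not above the low ones throughout, and to 9803 CPM in STZ-HFD replicate 1 against 23204 to 26961 in replicates 2 to 4. Macrophage markers summed to 206 and 146 CPM in the high Con+Veh libraries against 135 and 90.0 CPM. Cartilage markers summed to 2090 and 2748 against 1666 and 1206 CPM there. Annulus and tendon markers gave 2909 and 2793 against 2122.5 and 1454.5 CPM. In STZ-HFD none of these lists had both high libraries above both low ones. Nucleus pulposus markers summed to 114 CPM in db/+ replicate 1 beside 640 and 570, but did not follow the split in Con+Veh. Con+Veh replicate 2 and STZ-HFD replicate 4, both low for the members, carry the ending RIP in their library names, whose meaning is not given in the sources used here. The part of depth and of other tissue in the members' split was not tested.

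Axonal transcripts were scarce beside those of myelin. Neuronal cell bodies lie outside the IVD, and whether this bears on the scarcity was not tested. *Nefl*, the light neurofilament chain, was at 0 to 0.740 CPM in the 14 libraries, with 0 counts in 5 of them, and 5 of the 13 axon markers (*Nefl*, *Gap43*, *Calca*, *Tac1* and *Th*) did not pass the filter on low counts. The summed CPM of the 13 was 18.2 to 29.0 in db/+, 13.7 to 22.8 in db/db, 31.4 to 41.0 in Con+Veh and 27.5 to 64.5 in STZ-HFD, the top being STZ-HFD replicate 1. This sum went with the members' split in 3 groups. It was 35.1 and 41.0 CPM in the high Con+Veh libraries against 31.4 and 33.0 CPM, a narrow gap. In STZ-HFD it was 64.5 and 41.9 CPM against 27.5 and 37.1 CPM, and in db/+ replicate 2 29.0 CPM beside 23.9 and 18.2 CPM. In db/db it was 22.8, 13.7 and 16.2 CPM, not lowest in replicate 3. The cause was not tested. None of the 8 axon markers that were tested was called in either model, with 2 at an unadjusted p under 0.05 in db/db and 0 in STZ-HFD, beside 21.1% and 17.9% of all genes.

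Other cells that express some of these genes were checked by their own markers. Oligodendrocytes, the myelin cells of the central nervous system, share *Mbp*, *Mag*, *Mal*, *Cnp* and *Sox10*. Their defining gene *Mog* was at 0 to 0.493 CPM, and 7 of 8 oligodendrocyte markers did not pass the filter, the exception being *Myrf* at 0.574 to 19.4 CPM, which other tissues express too. Melanocytes share *Sox10*, and their 7 markers summed to 0.617 to 3.01 CPM in 13 libraries and to 20.0 CPM in STZ-HFD replicate 1, above the 16.8 CPM of *Sox10* in that library. T cells share *Mal*, and 5 T cell markers summed to 0.550 to 6.17 CPM over all libraries, the top again in STZ-HFD replicate 1. Epithelial cells express *Mal* as well, and of 6 keratinocyte markers *Krt5*, *Krt14* and *Krt1* stayed at or below 1.89 CPM, while *Dsp*, also present in other cells, reached 82.0 CPM. The sum of the 6 ran from 11.8 CPM in db/+ replicate 1 to 127 CPM in Con+Veh replicate 2. In the latter *Dsp* gave 78.9 CPM and *Perp* most of the rest. The labelled tissue was represented by *T*, the notochordal factor of nucleus pulposus cells, at 12.1 to 306 CPM and by *Acan* at 318 to 9314 CPM.

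A wider list of 45 Schwann cell genes, fixed by role and leaving out the members, gave 37 genes that could be tested. In db/db 1 of 37 was called, up, and 0 were called down, beside the 1.66% of all genes. In STZ-HFD 0 of 37 were called by limma, beside 2.61% of all genes, and 7 had an unadjusted p under 0.05, beside 17.9% of all genes. edgeR's quasi-likelihood test and DESeq2 also called 0 of 37 there, beside 0.171% and 1.64% of all genes. The median log2 fold change of the 37 was -0.10 in db/db and -0.43 in STZ-HFD, beside -0.04 and -0.04 over all genes, and 33 of 37 were below 0 in STZ-HFD with quality weights. In voom without library weights 18 of 37 were below 0 there and the median was 0.16.

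**Figure D4:**
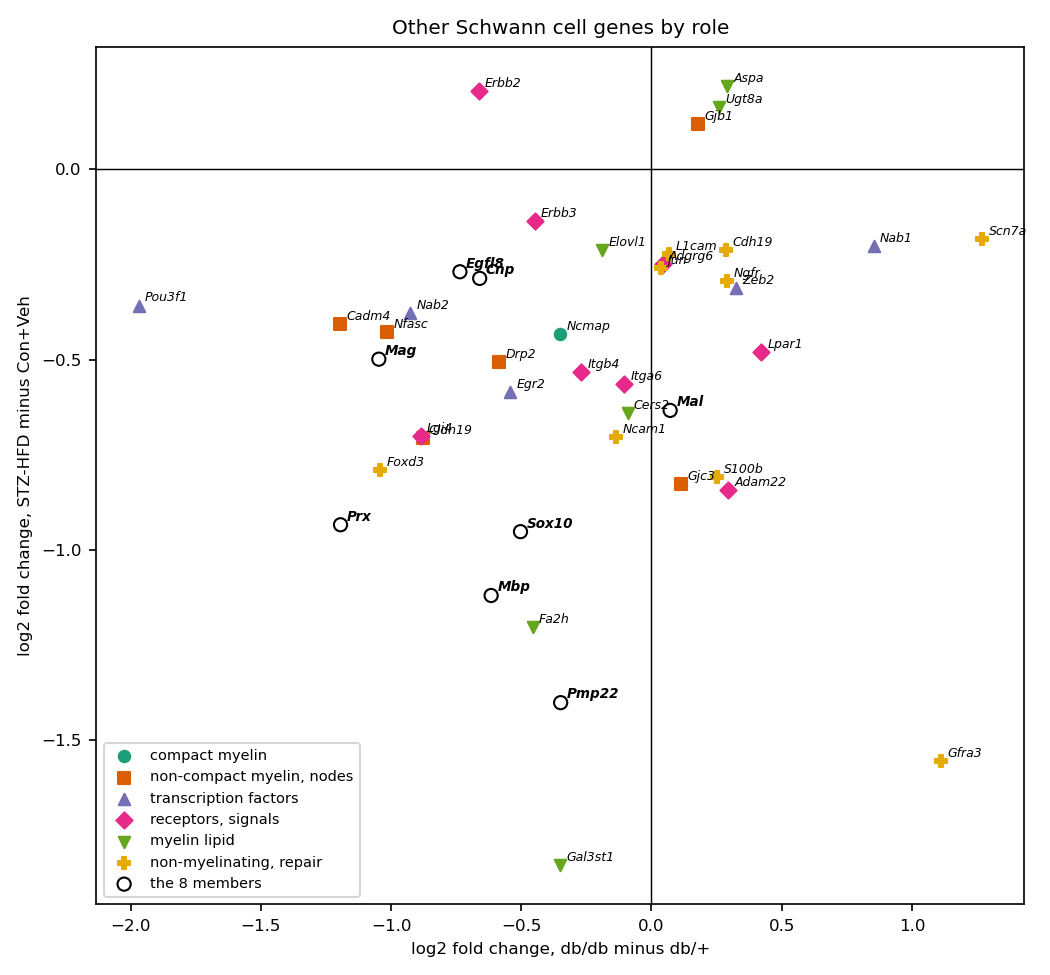
Log2 fold change in db/db (x axis) against that in STZ-HFD (y axis) for 35 other Schwann cell genes, marked by role, and the 8 members (open circles), all from the weighted fit. *Scn7a* at 1.27 is the only gene of the list called in db/db, and most points lie below 0 on the y axis.

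Of the compact myelin genes, 3 of 4 were tested and none passed. *Pmp2* did not pass the filter. Of 6 genes of non-compact myelin and nodes, including the gap junction gene *Gjb1* and *Cldn19*, none passed. Of 6 myelin lipid genes none passed either, the lowest adjusted p being 0.080 for *Gal3st1*, the sulfatide synthase, in STZ-HFD (log2 fold change -1.83, SE 0.56, 1.08 to 5.70 CPM in Con+Veh and 0.683 to 1.69 CPM in STZ-HFD).

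Of 6 transcription factors, 5 were tested and none passed. *Egr2*, the partner of SOX10 in myelination, was at 2.34, 6.80 and 5.72 CPM in db/+, 2.30, 5.02 and 2.702 in db/db, 3.37, 1.06, 7.47 and 10.1 in Con+Veh and 7.11, 8.36, 4.50 and 2.38 CPM in STZ-HFD. It thus had its high and low libraries in the STZ-HFD cohort where the members had theirs, and its log2 fold changes were -0.54 (SE 0.57, adjusted p = 0.62) and -0.59 (SE 0.57, adjusted p = 0.64). Of 9 receptors and signals, 8 were tested and none passed. *Erbb3*, the neuregulin receptor of Schwann cells, was at 3.98, 6.56 and 4.76 CPM in db/+, 4.52, 3.14 and 3.72 in db/db, 2.23, 5.80, 9.21 and 11.5 in Con+Veh and 14.3, 10.3, 8.60 and 5.44 CPM in STZ-HFD (log2 fold changes -0.45, SE 0.37, adjusted p = 0.51, and -0.14, SE 0.33, adjusted p = 0.87). These fold changes are from the weighted fit, and in STZ-HFD the median of the wider list changed sign without the weights.

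Of 14 genes of non-myelinating or repair Schwann cells, 9 were tested, and *Scn7a* rose in db/db. *Scn7a* (ENSMUSG00000034810) encodes a sodium-sensing channel known in non-myelinating Schwann cells and in some other cells. It was at 12.7, 17.3 and 18.8 CPM in db/+ and 43.9, 42.4 and 31.3 CPM in db/db. Every db/db library lay above every db/+ library, with a log2 fold change of 1.27 (SE 0.25, limma adjusted p = 0.023). In Con+Veh it was at 21.8, 37.5, 59.2 and 55.1 CPM and in STZ-HFD at 38.8, 47.8, 47.1 and 47.8 CPM (log2 fold change -0.18, SE 0.21, adjusted p = 0.70). The difference between the models was 1.45 (SE 0.33, adjusted p = 0.034), a call lost in 11 of 16 processing alternatives (adjusted p-values of 0.019 to 0.34). With 1 library left out, that call was lost in 10 of 14 fits (limma adjusted p-values of 0.017 to 0.22). The db/db call did not hold with edgeR's quasi-likelihood test (adjusted p = 0.20), with voom without weights (0.15), with an adipocyte or muscle score as covariate (0.19 and 0.061), with the GC trend removed (0.098), or without db/+ replicate 1 (0.057), db/+ replicate 2 (0.066), db/db replicate 1 (0.091) or db/db replicate 2 (0.066). Its fold change was 0.88 to 1.45 over all processing alternatives.

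No other gene of that group was called. With *Scn7a* included, 7 of 9 tested genes were above 0 in db/db (median log2 fold change 0.25). In STZ-HFD 9 of 9 were below 0 (median -0.29), and 5 of 9 without library weights. In the difference of the contrasts 8 of 9 were above 0, and 6 of 9 without library weights. For 2 of 9 the db groups did not overlap, beside 25.8% of all genes. The second of these was *Gfra3*, a receptor of the GDNF family, named after its values were seen, at 0.369, 0.330 and 0.155 CPM in db/+ and 0.566, 0.488 and 0.754 CPM in db/db (log2 fold change 1.11, SE 1.00, adjusted p = 0.55). *Ngfr*, the low-affinity neurotrophin receptor of immature and repair cells, was at 1.01, 4.26 and 2.72 CPM in db/+, 2.56, 3.12 and 3.16 in db/db, 1.77, 1.60, 3.90 and 2.499 in Con+Veh and 3.12, 6.499, 2.95 and 1.19 CPM in STZ-HFD (log2 fold changes 0.29, SE 0.47, adjusted p = 0.77, and -0.29, SE 0.53, adjusted p = 0.82). *Ncam1*, a cell adhesion molecule also present in muscle and nerve, had a log2 fold change of -0.70 (SE 0.18, adjusted p = 0.042) in STZ-HFD, which misses the minimum fold. *Gfap*, *Sox2*, *Gdnf*, *Shh* and *Olig1* did not pass the filter.

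Marker genes of other tissues that were called give the setting of these comparisons. In db/db the adipocyte genes *Adipoq* (log2 fold change 1.67, adjusted p = 0.033) and *Plin1* (1.73, adjusted p = 0.024) and the endothelial gene *Tek* (1.31, adjusted p = 0.012) rose, and the muscle gene *Myh1* fell by 1.66 (adjusted p = 0.021). In STZ-HFD the muscle genes *Acta1* (1.46, adjusted p = 0.019), *Myh1* (1.11, adjusted p = 0.036), *Myh2* (1.71, adjusted p = 0.022), *Tnni2* (1.10, adjusted p = 0.042) and *Pvalb* (1.59, adjusted p = 0.012) and the adipocyte gene *Plin4* (1.30, adjusted p = 0.017) rose. The macrophage genes *Cd68* (-1.63, adjusted p = 0.017) and *C1qb* (-1.11, adjusted p = 0.043) and the matrix genes *Fmod* (-1.58, adjusted p = 0.0057), *Acan* (-1.59, adjusted p = 0.015), *Col2a1* (-1.84, adjusted p = 0.016), *Sox9* (-1.53, adjusted p = 0.0042) and the tendon factor gene *Mkx* (-1.16, adjusted p = 0.0496) fell. All are limma voomWithQualityWeights values. edgeR's quasi-likelihood test called 0 genes in db/db, so none of the db/db calls held with it, and 29 of all genes in STZ-HFD. The STZ-HFD calls, 220 higher and 221 lower genes, also rested on single libraries. They were 3 and 11 without Con+Veh replicate 3, 3 and 12 without Con+Veh replicate 4, and 3 and 15 without STZ-HFD replicate 3. Leaving out any other library of that cohort left at least 64 higher and 100 lower genes. Which STZ-HFD markers held in these fits is not given here. The part of these marker genes in the members' values was not tested beyond the fits with a muscle or an adipocyte score, in which 0 members were called.

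**Figure D5:**
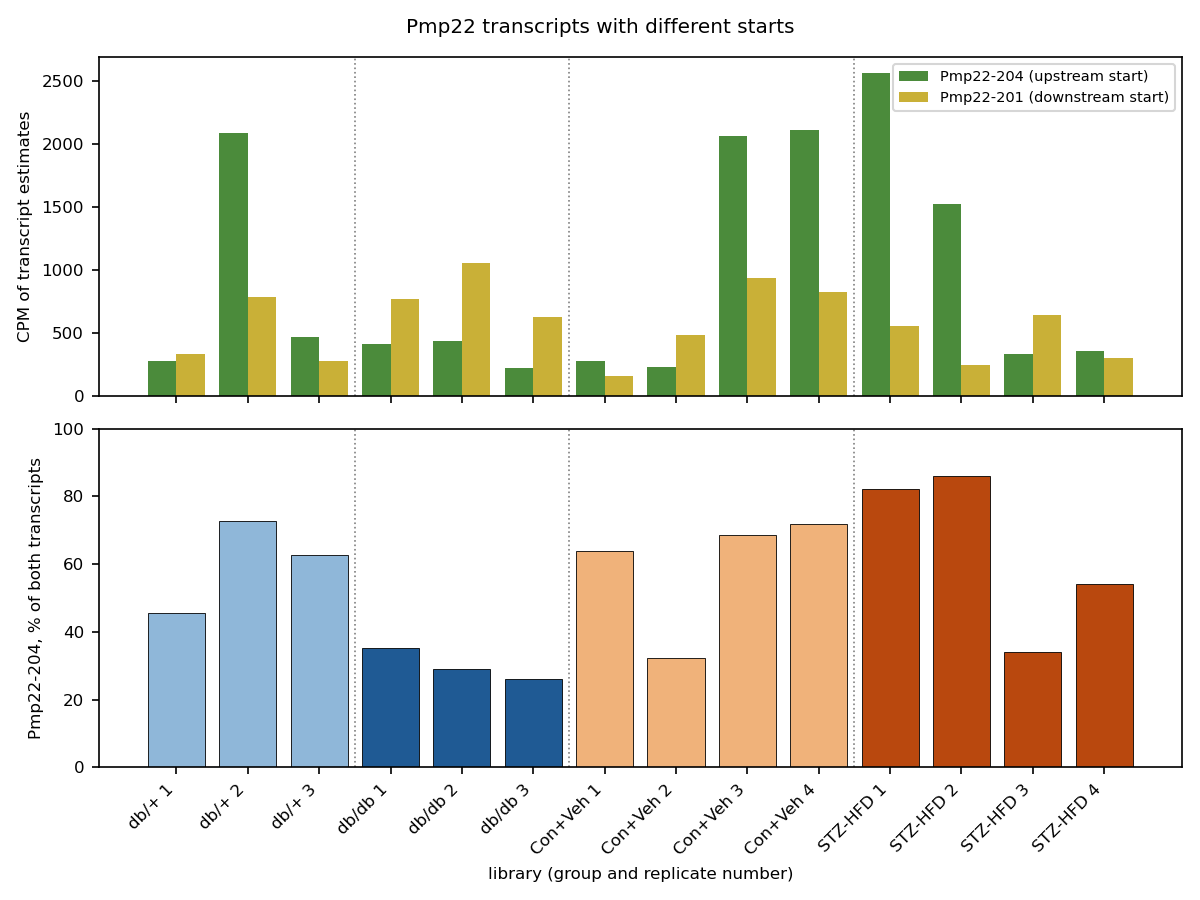
Upper panel, CPM of the estimated counts of Pmp22-204 (from promoter 1) and Pmp22-201 (from promoter 2) in each library. Lower panel, Pmp22-204 as a percentage of both. The 3 db/db libraries lie at 26.2% to 35.1%, below the 3 db/+ libraries at 45.5% to 72.6%, and the STZ-HFD cohort is mixed.

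Pmp22-204 starts at position 63128982 of chromosome 11, next to the promoter 1 sequence shown above, and Pmp22-201 at 63131512, beside promoter 2. Over all libraries, Pmp22-204 took 42.6%, Pmp22-201 33.5% and Pmp22-202, with a start further downstream, 22.0% of the estimated counts of the gene, which were 3243 or more per library. Pmp22-204 was at 278, 2084 and 463 CPM of transcript estimates in db/+, 414, 431 and 221 in db/db, 276, 230, 2058 and 2108 in Con+Veh and 2562, 1519, 332 and 352 CPM in STZ-HFD. Pmp22-201 was at 333, 787 and 274 CPM in db/+, 765, 1052 and 622 in db/db, 156, 484, 937 and 822 in Con+Veh and 553, 245, 640 and 298 CPM in STZ-HFD. The high libraries of Pmp22-204 were thus those of the myelin genes, and those of Pmp22-201 were not in STZ-HFD.

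Pmp22-204 made up 35.1%, 29.0% and 26.2% of the sum in db/db (30.1% ± 4.55, SD, n = 3) and 45.5%, 72.6% and 62.8% in db/+ (60.3% ± 13.7, SD, n = 3). All db/db libraries lay below all db/+ libraries, by 30.2 percentage points on average. The exact permutation test (two-sided) gave p = 0.10, the smallest that 3 mice against 3 allow, and an adjusted p of 0.43 over the 13 transcript shares tested, so the difference did not pass the test. Of the 7 member shares tested in db/db, 3 did not overlap between the groups, namely Pmp22-204 in this sum and in the whole gene, which share their numerator, and Mbp-211. Of 8580 genes with at least 2 transcripts and 20 estimated counts in each db library, the share of the leading transcript did not overlap in 15.1%. As a share of all estimates of the gene, Pmp22-204 was at 20.6% to 30.3% in db/db (25.3% ± 4.84, SD, n = 3) and 34.7% to 48.7% in db/+ (43.2% ± 7.47, SD, n = 3), a difference of -17.9 percentage points with the same exact permutation p of 0.10. In the fit across 34963 transcripts, Pmp22-201 had a log2 fold change of 0.86 (SE 0.45, limma adjusted p = 0.49) and Pmp22-204 one of -1.11 (SE 0.98, adjusted p = 0.71) in db/db, where 0.183% of transcripts were called. The difference of the contrasts for Pmp22-201 was 1.63 (SE 0.66, adjusted p = 0.44), where 0.0372% of transcripts were called. In the other model the share was 63.8%, 32.2%, 68.7% and 71.9% in Con+Veh and 82.2%, 86.1%, 34.2% and 54.2% in STZ-HFD, which overlapped (5.005 percentage points higher in STZ-HFD, exact permutation p = 0.71), and of all estimates of the gene it was 8.33 percentage points higher (exact permutation p = 0.51). Estimates split reads between transcripts that share most of their exons, and how firmly a library's reads fix that split is unknown here.

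No transcript share of the other members passed the test either. Mbp-211 took 68.6% of the listed *Mbp* estimates and was at 69.5% to 72.4% in db/db and 47.1% to 68.7% in db/+ (exact permutation p = 0.10, the smallest possible, adjusted p = 0.43), and 62.6% to 85.5% in STZ-HFD against 64.0% to 83.5% in Con+Veh (exact permutation p = 0.54). Prx-201 took 76.6% of *Prx* and Cnp-201 79.7% of *Cnp*, with exact permutation p-values of 0.17 to 0.63 in both models. The share of Sox10-203 was 97.9% to 100% in the db cohort but swung between 0 and 100% inside both Con+Veh and STZ-HFD, on 61 to 269 estimated counts, so that split is not read as a level. *Mag* and *Egfl8* had too few estimated counts for a share to be read, at most 21 for *Mag* and 30 for *Egfl8*, with 0 in 1 and 4 libraries. The share of Mag-202 was still among the 7 tested in db/db, on as few as 2.40 estimated counts, below the 20 asked of the background genes. It gave an exact permutation p of 0.40 and is not read.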

How the data were processed

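Bulk RNA-seq of pooled tail IVDs was measured in 14 libraries (3 db/+, 3 db/db, 4 Con+Veh, 4 STZ-HFD), each amplified from small amounts of total RNA. All carry 1 batch label. Gene counts were deposited as whole reads per gene, made by the authors with STAR 2.7.9a1 and featureCounts 2.0.32 on GRCm38 (Ensembl), per the submitters' processing notes. Strand and multi-mapping settings are not given in the sources used here. Estimated counts per transcript were deposited as the output of Salmon 1.5.23, run by the authors, and were rounded for the tests.

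Repeated lines of an identifier (287), which held the same counts, were dropped, which left 55487 genes, 55227 of them matched to the annotation. Genes above 1 CPM in at least 3 libraries (16915) were fitted, following the study, with limma 3.58.1 voomWithQualityWeights and edgeR 4.0.16 TMM factors (R 4.3.3), with 1 mean per group over all 14 libraries, and p-values were adjusted by Benjamini-Hochberg within each contrast. The quasi-likelihood test of edgeR and DESeq2 1.42.0 were alternatives. Other alternatives changed the weights, scaling, filter, samples, replicate block, source of counts, covariates, ribosomal RNA and GC trend, or left out each library. Shares were tested by permutation (Python 3.11.15, scipy 1.17.1). The fitting script was tested on simulated data. Total counts were 16076908 to 58943169 per library.

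Replicate numbers did not pair the samples, and the 18 pairs of replicates differed beyond sampling noise. Each library came from a different mouse. The members and lists were chosen with earlier results of these data known. Named genes are the 8 members, every listed marker called in either model, *Egr2*, *Erbb3*, *Ngfr*, *Mog*, *Nefl* and *Lepr*, and the genes most like the members. Some genes of these lists are not reported here. Other genes named here were chosen after their values were seen.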

Additional observations from a re-analysis of the deposited data

Results flagged for a closer look

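Both results marked for a closer look concern *Scn7a*, which is not one of the 8 genes. In STZ-HFD its lowest library, replicate 1 at 38.8 CPM, stood apart from 47.8, 47.1 and 47.8 CPM in the other 3. The gap was 0.921 of the group's range in log2 CPM, above Dixon's 95% critical value for 4 samples. Of 18 groups of 4 checked this way, chance marks about 1 in 20. Its response differed between the models, by 1.45 on the log2 scale (limma adjusted p = 0.034), with 12.7 to 18.8 CPM in db/+ against 31.3 to 43.9 CPM in db/db, and a log2 fold change of -0.18 in STZ-HFD. Over 16 processing alternatives the difference had adjusted p-values of 0.019 to 0.34 and lost its call in 11. With 1 library left out, it lost its call in 10 of 14 fits.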

How the results depend on the processing

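No member was called in any contrast under any alternative or with any library left out, and the smallest adjusted p of a member over the processing alternatives was 0.095 in db/db and 0.083 in STZ-HFD. Counts over all genes moved more: the db/db contrast called 281 genes and the STZ-HFD contrast 441, but 0 and 29 were called by edgeR's quasi-likelihood test (1891 and 2136 at an unadjusted p under 0.05), 9 and 19 by voom without weights, and 0 and 19 with the adipocyte score. In db/db, 136 of 144 member values kept their sign over the processing alternatives, and in STZ-HFD 111 of 144 did. The cause was not tested.

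In db/db, *Pmp22* turned to 0.17 with the replicate block, 0.37 with the muscle score and 0.17 with the GC trend removed with the block, *Sox10* to 0.13 in that last fit, and *Mal* to -0.22 (quasi-likelihood), -0.20 (DESeq2), -0.052 (no filter) and -0.40 (adipocyte score). In STZ-HFD, *Mbp*, *Prx*, *Mag*, *Mal*, *Cnp*, *Egfl8* and *Scn7a* turned to 0.12, 0.40, 0.48, 0.47, 0.71, 0.59 and 0.066 with the quasi-likelihood test, to 0.16, 0.43, 0.51, 0.50, 0.74, 0.61 and 0.091 with DESeq2, and to 0.49, 0.78, 1.85, 1.16, 1.11, 0.45 and 0.17 with voom without weights, where *Sox10* was 0.24. As differences of plain group means, added after seeing the weights, *Mbp* was 0.55, *Prx* 0.71, *Mag* 1.24, *Mal* 1.02, *Sox10* 0.11, *Cnp* 0.92 and *Egfl8* 0.39. Totals of transcript estimates gave 0.23 for *Mag*, 0.22 for *Cnp* and 0.97 for *Egfl8*. Without Con+Veh replicate 2 and STZ-HFD replicate 4, whose library names end in RIP, these were 0.12, 0.34 and 0.070, and with no filter, which moved the median of all genes to -0.36, *Cnp* was 0.0077.

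With 1 library left out, ranges that crossed 0 were -0.72 to 0.50 (*Pmp22*) and -0.45 to 0.91 (*Mal*) in db/db, and in STZ-HFD -1.61 to 0.17 (*Prx*), -0.96 to 0.68 (*Mag*), -1.04 to 0.19 (*Mal*), -0.72 to 0.56 (*Cnp*), -0.59 to 0.49 (*Egfl8*), -0.26 to 0.089 (*Scn7a*) and -3.98 to 15.0 percentage points (the Pmp22-204 share).

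Of the wider list, 0 were called in db/db with the quasi-likelihood test, voom without weights, the adipocyte score or the GC trend removed, and 0 to 1 with 1 library left out. In STZ-HFD 1 was called with the replicate block, 1 without the libraries of lowest weight, 1 with no minimum fold, and 0 to 1 with 1 library left out. Same-numbered samples correlated at -0.28 to 0.19 in the db cohort and -0.26 to -0.04 in the STZ-HFD cohort, so the numbers gave no pairing, and the replicate block raised the count in db/db to 572 higher and 394 lower genes, from 208 and 73, while changing no member's call. *Mag* and *Egfl8* were the scarcest members, and the part of depth in their values was not tested.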
